A study of Pan troglodytes with 38 samples.

Results

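The mitochondrial genome of the chimpanzee encodes 13 proteins, and 6 of them are described here: MT-CO1, MT-CO2, MT-CO3, MT-CYB, MT-ATP6 and MT-ATP8. Their rows were found by gene symbol among the 31373 rows of the deposited gene count table, all 6 were present, and each was measured in 38 of 38 animals. The samples are post-mortem hearts of 38 chimpanzees (Pan troglodytes), 22 females and 16 males, aged 10 to 57 years in the 34 animals with a recorded age. The tissue came from Yerkes (21 animals), SNPRC (13), New Iberia (2), MD Anderson (1) and Little Rock Zoo (1). RNA was extracted in 2018 from 21 animals and in an earlier year from 17, and polyadenylated RNA was sequenced. The labels give no treatment and no control group, and the contrasts examined are extraction year, sex and RNA integrity number (RIN, a measure of RNA quality). Some of the laboratory animals, 4X0339 and 4X0267 among them, had been exposed to hepatitis B or C virus (HBV, HCV). Virus exposure, age and source were not contrasted here. The earlier libraries come from an earlier published set, so that extraction year and the set a library belongs to cannot be told apart. Some animals are related, and p-values treat them as independent.

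MT-CO1, MT-CO2 and MT-CO3 form the core of cytochrome c oxidase (complex IV), which reduces oxygen at the end of the respiratory chain. MT-CYB is the cytochrome b of complex III, and MT-ATP6 and MT-ATP8 belong to the membrane part of ATP synthase (complex V). The remaining subunits of these complexes are nuclear genes, and heart muscle is rich in both. Mitochondrial messenger RNAs are cut from long transcripts of a circular genome, and MT-ATP8 and MT-ATP6 overlap and share a messenger RNA. Copies of mitochondrial sequence also lie in nuclear chromosomes. The deposited counts are of reads that map to a single place, and a read that overlaps more than 1 gene is left out, so that counts of these genes can lose reads to nuclear copies and, for MT-ATP8 and MT-ATP6, to each other.

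Levels are given as CPM, the gene count scaled to 1e+06 reads in orthologous exons of the same animal. That table holds 0 mitochondrial rows, so CPM relates each gene to nuclear reads and may exceed that number. The orthologous exon totals ran from 14408012 to 81603350 reads per animal (median 41226039), and the gene count totals from 43892814 to 132478050. All 10 cardiomyocyte markers looked for had counts in every animal, with a summed level from 12933 CPM in Little_R to 137340 CPM in 522. The lowest of all member counts was 43 reads (MT-ATP8 in 4x0025), with a counting error of 15.2%. The 6 genes together took 12.3% to 42.8% of all gene counts (median 22.7%).

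The members differed in level by orders of magnitude, and MT-CO3, MT-ATP6 and MT-ATP8 each fell into separate sets of animals. Per kb of gene length, the median over 38 animals was 178685 CPM for MT-CO1, 89871 for MT-CO2, 2813 for MT-CYB, 165.0 for MT-ATP6, 156.2 for MT-CO3 and 12.5 for MT-ATP8. MT-CO1 was above MT-CO2 in 38 of 38 animals, and MT-CO2 was above each of the other 4 members in 38 of 38. MT-ATP6 and MT-CO3 lay next to each other in this order, and MT-CO3 was above MT-ATP6 in 1 of 38 animals (554_2, ratio 2.98).

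**Figure D1:**
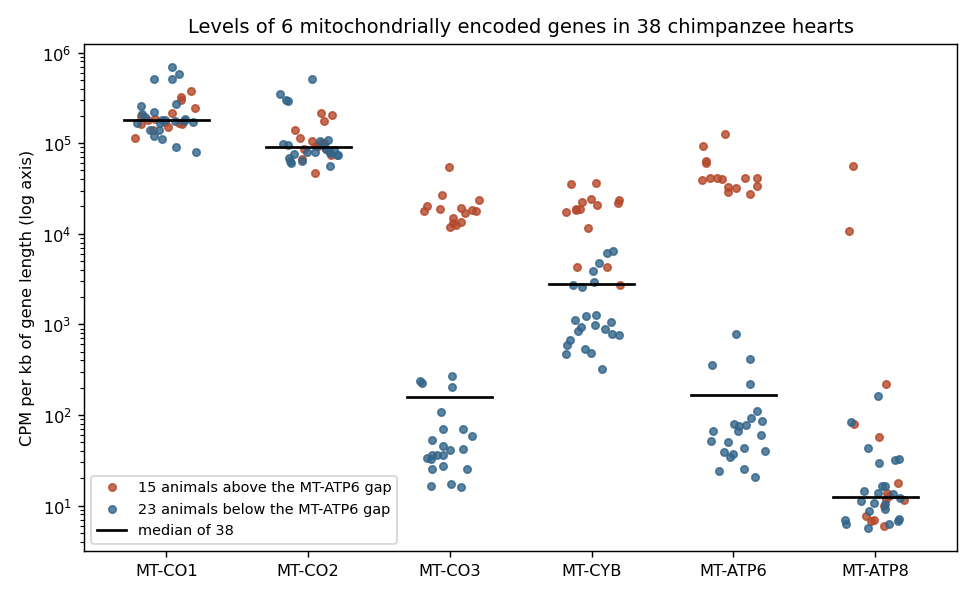
Level of each of the 6 genes in CPM per kb of gene length on a log axis, with 1 point per animal, coloured by the side of the MT-ATP6 gap it lies on, and a black line at the median of 38. MT-CO1 and MT-CO2 form a single cloud each, MT-CO3 and MT-ATP6 split into the same 15 and 23 animals, and MT-ATP8 stands apart in 2 animals.

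MT-CO1, the catalytic subunit of complex IV, ranged from 124644 CPM in 4x523 to 1066690 CPM in 537, with a median of 275532. It held 44.1% to 72.1% of the counts of the 13 mitochondrial messenger RNAs. The 4 highest animals were 537, 558 (898214), Little_R (789344) and 4X0339 (786806), which were all extracted in 2018. The next animal was 529 at 579000 CPM. MT-CO2, which takes the electrons from cytochrome c, ranged from 32107 CPM in 4x0519 to 345594 CPM in 537 around a median of 61472. The same 4 animals were the highest for MT-CO2. The largest step between neighbouring animals was 1.36-fold for MT-CO1 and 1.45-fold for MT-CO2, so that neither gene separated the animals into sets.

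MT-CO1 and MT-CO2 varied together. Pearson's r of their log2 CPM was 0.896 and Spearman's rho 0.781 over 38 animals (two-sided permutation p = 1e-05 for both, the smallest that the permutations can give; adjusted over 24 relations between members, p = 4e-05 for r and 6e-05 for rho). Without the 2 animals farthest from the median of MT-CO1, r was 0.846. Within extraction years r was 0.670 in the 17 animals of the earlier year (permutation p = 0.00339) and 0.927 in the 21 of 2018 (permutation p = 1e-05). The ratio of MT-CO1 to MT-CO2 per kb ran from 1.19 in 4x523 to 3.34 in 676 (median 2.04), and the SD of its log2 was 0.34. Both genes share the library and the divisor in this relation.

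**Figure D2:**
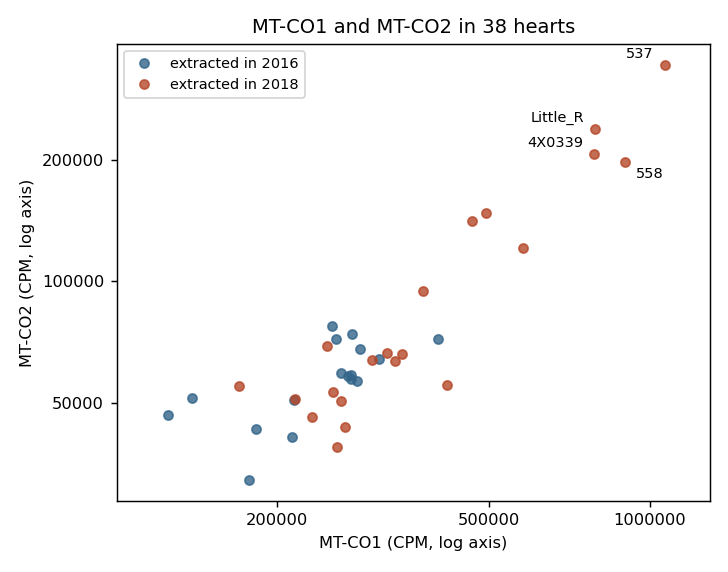
MT-CO2 against MT-CO1, both in CPM on log axes, with 1 point per animal coloured by extraction year. The 4 labelled animals are the highest for both genes, and all 4 were extracted in 2018.

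MT-ATP6, the proton channel subunit of ATP synthase, split the animals. In 23 animals it lay between 14.2 CPM (4x0025) and 527 CPM (4X0339), with a median of 45.5, and in 15 animals between 18589 CPM (4X0267) and 85930 CPM (529), with a median of 27737. This gap between neighbouring animals was 35.3-fold. MT-CO3, the third core subunit of complex IV, gave the same division: 12.5 CPM (4x0025) to 209 CPM (537) in 23 animals and 9268 CPM (462) to 43127 CPM (529) in 15, with a gap of 44.4-fold. The animals above both gaps were the same 15. Outside the 6 genes MT-ND6, a complex I subunit, divided in the same way, with 0.828 to 83.5 CPM in the 23 animals and 1231 to 5203 CPM in the 15.

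MT-CYB followed this division only in part. It ranged from 370 CPM in 554 to 41825 CPM in 4X0357 around a median of 3210, and its largest step was 2.04-fold. In the 23 animals with low MT-ATP6 it lay between 370 and 7360 CPM (median 1109) and in the other 15 between 3114 and 41825 CPM (median 21636). The ranges overlap, since 462 (3114 CPM), 4X0354 (4849 CPM) and 495 (4951 CPM) were low among the 15 and 476 (7360 CPM), 456 (6908 CPM) and 4x0025 (5428 CPM) high among the 23. In CPM, MT-CO1 and MT-CO2 did not divide with MT-ATP6. The median of MT-CO1 was 275573 CPM in the 15 animals and 275490 CPM in the 23. That of MT-CO2 was 67956 and 56539 CPM. As a share of the 13 mitochondrial messenger RNAs, MT-CO1 did lie lower in the 15 animals, with little overlap. It held 44.1% (295) to 54.3% (462) there and 52.0% (4x523) to 72.1% (676) in the 23. MT-ATP6 and MT-CO3 are part of that denominator.

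Within the 15 animals the members stood in closer proportion. MT-CO1 was 4.23 times MT-ATP6 per kb (median, 2.98 to 5.94) and 10.1 times MT-CO3 (6.83 to 23.6). In the 23 animals the corresponding medians were 2766 (659 to 6509) and 4713 (709 to 7732). The 15 animals comprised 7 of 17 extracted in the earlier year and 8 of 21 extracted in 2018, 6 of 22 females and 9 of 16 males, 7 of 21 from Yerkes and 6 of 13 from SNPRC. Their RIN was 3.2 to 7.6 (median 5.7) against 2.5 to 8.4 (median 6.1) in the 23, and their median orthologous exon total 41138704 against 41313375 reads. The division was defined from the levels themselves and therefore received no test.

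A row outside the mitochondrial genome moved against MT-ATP6 between the 15 and the 23 animals. MTRNR2L14 carries the symbol of a nuclear gene that resembles MT-RNR2, the gene of the large mitochondrial ribosomal RNA. It was at 538 to 14255 CPM in the 23 animals with low MT-ATP6 (median 1065) and at 2.33 to 76.4 CPM in the 15 with high MT-ATP6 (median 7.79), so that the ranges did not overlap. Inside the sets it did not move against MT-ATP6. In the 23, 4X0339, 537, 558 and Little_R were the highest for MT-ATP6 and also for MTRNR2L14 (1877, 5704, 5129 and 14255 CPM). In the 15, 529, 4X0354 and 4X0357 were the highest for both, with 32.6, 76.4 and 34.4 CPM of MTRNR2L14. The orthologous exon total divides both rows. MTRNR2L14 was picked after its values were seen, and its part in the division was not tested.

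MT-ATP8, the small accessory subunit of ATP synthase, was the most uneven member. It was at 1.17 CPM (4x0025) to 45.1 CPM (495) in 36 animals, with a median of 2.50, and at 2204 CPM in 4x0519 and 11721 CPM in 529, a gap of 48.8-fold. The counts behind these values were 112447 and 306149 reads. Both animals were male and both belonged to the 15 with high MT-ATP6. In 529 MT-ATP6 was 2.23 times MT-ATP8 per kb, against a median of 3080 over those 15 animals. The other members were not all high there: 4x0519 had the lowest MT-CO2 of the 38 animals, while 529 had the highest MT-CO3 and MT-ATP6.

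The row ENSPTRG00000051343, which has no symbol, moved against MT-ATP8. It was at 51.3 CPM in 4x0519 and 399 CPM in 529, and at 18205 to 165085 CPM in the other 36 animals (median 37398). It too was picked after its values were seen, and its part in the MT-ATP8 values was not tested. Within the 36 animals the relation ran the other way: the row rose with MT-ATP8 by 0.44 ± 0.08 (SE) log2 per log2 unit of MT-ATP8 (edgeR quasi-likelihood test, adjusted p = 0.0236).

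**Figure D3:**
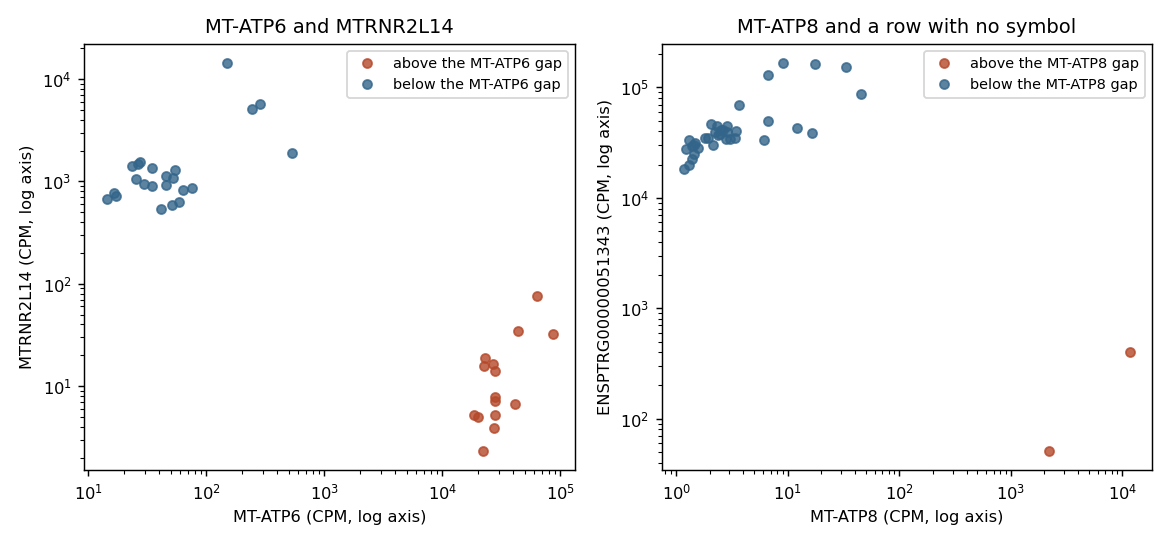
MTRNR2L14 against MT-ATP6 (left) and ENSPTRG00000051343 against MT-ATP8 (right), in CPM on log axes, with 1 point per animal. The 15 animals with high MT-ATP6 have 2.33 to 76.4 CPM of MTRNR2L14, and the 2 animals with high MT-ATP8 have 51.3 and 399 CPM of ENSPTRG00000051343.

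Inside the sets MT-ATP6 and MT-CO3 still varied together, and MT-ATP8 varied with them in the 23 animals but did not pass in the others. MT-ATP6 and MT-CO3 had r = 0.900 and rho = 0.939 in the 23 animals (adjusted permutation p = 4e-05) and r = 0.724 and rho = 0.718 in the 15 (adjusted permutation p = 0.00855). In the 15, r fell to 0.379 without the 2 animals farthest on the MT-CO3 axis (unadjusted permutation p = 0.202), so its size depends on those animals. Spearman's rho over all 15 passed (adjusted permutation p = 0.0072). The permutations took no account of extraction year, and in the 23 both genes were higher in 2018. The medians were 58.1 against 25.9 CPM for MT-ATP6 and 54.5 against 20.5 CPM for MT-CO3. With year and sex as covariates, MT-ATP6 still rose with MT-CO3 in the 23 (0.90 ± 0.14 log2 per log2 unit, edgeR adjusted p = 0.042). MT-CO1 and MT-ATP6 had r = 0.877 in the 23 animals and 0.911 in the 15 (adjusted permutation p = 4e-05 for both). In all these relations the orthologous exon total divides both genes. Its log2 had r = −0.719 with MT-CO1 over 38 animals. With MT-ATP6 it had −0.595 in the 23 and −0.704 in the 15. By Pearson's r, MT-CO2 and MT-CO3 passed in the 23 (r = 0.686, adjusted permutation p = 0.00134) and not in the 15 (r = 0.535, adjusted permutation p = 0.0673). Spearman's rho gave the reverse, with 0.418 in the 23 (adjusted permutation p = 0.0692) and 0.639 in the 15 (adjusted permutation p = 0.0232). In the 23 animals MT-ATP8 had r = 0.879 with MT-ATP6 and 0.757 with MT-CO3 (adjusted permutation p = 4e-05 and 0.000109). In the 13 of the 15 that lie below its own gap it had 0.280 and 0.309 (adjusted permutation p = 0.4 and 0.372), and the difference between the sets was not tested. MT-ATP8, among the 36 animals below its gap, had r = 0.695 with MT-CO1 (adjusted permutation p = 6.86e-05) and 0.697 with MT-CO2 (adjusted permutation p = 0.000109). By Pearson's r, MT-CYB passed the threshold with none of the other 5 members (r from 0.0300 to 0.481, adjusted permutation p from 0.102 to 0.923). By Spearman's rho it passed with MT-CO2 alone (0.479, adjusted permutation p = 0.0055, against r = 0.223), and without 537, Little_R, 558 and 4X0339 it passed with MT-CO2 by r as well (r = 0.409, adjusted permutation p = 0.0358). MT-CYB with MT-CO2 was computed across the 15 and the 23 animals together, not within them. The medians of both genes were higher in the 15 (21636 against 1109 CPM for MT-CYB, 67956 against 56539 CPM for MT-CO2). In the 23 animals, leaving out the same 4 ended the calls of MT-CO2 with MT-ATP6 (r = 0.133, adjusted permutation p = 0.702) and MT-CO3 (r = −0.0779, adjusted permutation p = 0.862), of MT-CO1 with MT-CO3 (r = 0.443, adjusted permutation p = 0.111) and of MT-CO3 with MT-ATP8 (r = 0.400, adjusted permutation p = 0.144).

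Variation between animals was then set against that of other genes. Overdispersion is the variance beyond counting error in a negative binomial model with the orthologous exon total as offset, and the dispersion is its natural log after removing the trend with mean expression. Among 13121 genes with at least 6 CPM in an animal, MT-ATP8 ranked number 2 with a dispersion of 4.02 ± 0.907 (SE from redrawn sets of animals), MT-CO3 43 with 3.07 ± 0.143, MT-ATP6 49 with 3.003 ± 0.146 and MT-CYB 273 with 2.05 ± 0.119. MT-CO2 was near the trend at 0.0223 ± 0.271, and MT-CO1 below it at −0.610 ± 0.256. Before the trend was removed, both lay above the median overdispersion of all genes (0.126), with 0.331 for MT-CO2 and 0.247 for MT-CO1. A higher overdispersion than that of MT-CO1 was found in 4068 of the 13121 genes. For MT-ATP8 the overdispersion of 5.79 fell to 3.98 without 529, with 4x0519 still in the fit. Within the earlier year and 2018 alone MT-ATP8 stood at 4.58 and 3.77, MT-CO3 at 3.84 and 2.70 and MT-ATP6 at 3.79 and 2.61. Each year held 1 of the 2 animals above the MT-ATP8 gap. None of these MT-ATP8 values therefore gives the spread of the other 36 animals. MT-CO2 lay below the trend in each year alone (−1.06 and −0.170).

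Extraction year was examined first among the technical contrasts. In the edgeR quasi-likelihood test of 2018 against the earlier year with sex as a covariate, 0 of 6 members passed an adjusted p of 0.05, where 16.1% of 15790 genes did; 2 members had an unadjusted p under 0.05, and DESeq2 called both. MT-CO1 had a median of 332649 CPM in 2018 and 263461 in the earlier year (log2 difference 0.66 ± 0.24 (SE), edgeR adjusted p = 0.0568), and MT-CO2 66063 and 58275 CPM (0.68 ± 0.25, edgeR adjusted p = 0.0596). The years overlapped for both genes. DESeq2 gave differences of 0.69 (adjusted p = 0.00491) and 0.71 (adjusted p = 0.0141). edgeR also called both when counts were scaled by the orthologous exon total, the divisor of CPM (0.79, adjusted p = 0.0195, and 0.82, adjusted p = 0.0272), and without the sex covariate (adjusted p = 0.0457 and 0.0401). With the gene count total it called neither (0.43, adjusted p = 0.0635, and 0.41, adjusted p = 0.0996), so that the call depends on the tool, the scaling and the covariates. Without 537, Little_R, 558 and 4X0339 the differences were 0.34 (edgeR adjusted p = 0.288) and 0.23 (edgeR adjusted p = 0.484). The other 4 members had adjusted p from 0.505 to 0.987. Among the 23 animals with low MT-ATP6, the 10 of the earlier year lay at 14.2 to 34.9 CPM and the 13 of 2018 at 41.2 to 527 CPM, with no overlap, a set of values that was not tested because the 23 animals were chosen by this gene.

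**Figure D4:**
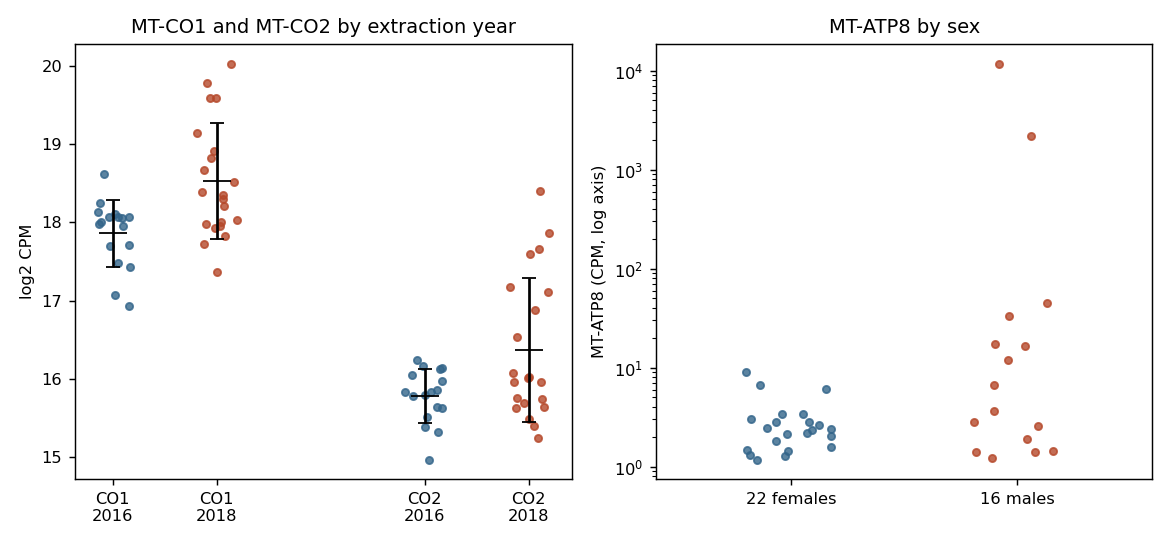
Left, log2 CPM of MT-CO1 and MT-CO2 by extraction year, with 1 point per animal and the mean ± SD. Right, MT-ATP8 in CPM on a log axis by sex. The years overlap for both genes, and the 2 highest MT-ATP8 values, 2204 and 11721 CPM, are in males.

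In males against females, MT-ATP8 was the 1 member that passed the threshold, where 0.215% of 15790 genes did. Its level was 1.17 to 8.98 CPM in 22 females (median 2.36) and 1.22 to 11721 CPM in 16 males (median 5.19), and the groups overlapped. In the 14 males below the gap it reached 45.1 CPM with a median of 3.25. The log2 difference was 7.93 ± 1.15 (SE, edgeR quasi-likelihood test, adjusted p = 3.29e-05). It rests on 4x0519 and 529: without them the difference was 1.59 ± 0.41 (edgeR adjusted p = 0.133). Among the 21 Yerkes animals, which include 1 of them, it was 7.49 (edgeR adjusted p = 0.185). DESeq2 gave 1.48 over 38 animals (adjusted p = 0.018), far below the edgeR difference and near that without 4x0519 and 529. How DESeq2 handled the counts of those 2 animals was not examined. The other 5 members had log2 differences of 0.13 to 1.41 with adjusted p from 0.830 to 0.931.

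As a share of mitochondrial messenger RNA, which does not depend on nuclear reads, 0 of 18 permutation tests by year, by sex and with RIN passed after adjustment, and 2 had an unadjusted p under 0.05. The smallest adjusted p-values were 0.0610 for MT-ATP8 (log2 share higher in males by 1.95, two-sided permutation test) and 0.0774 for MT-CO1 (log2 share −0.94 ± 0.15 (SD) in 16 males and −0.79 ± 0.17 in 22 females). In the animals of 2018 alone MT-CO1, MT-ATP6 and MT-ATP8 passed by sex, each with an adjusted permutation p of 0.0341. The differences of log2 share there, males minus females, were −0.22, 4.55 and 2.14. Of the 2018 animals above the MT-ATP6 gap, 295, 389, 495, 4X0354, 4X0550 and 529 were male and 4X0267 and 4X0357 female. The MT-ATP6 difference thus largely counts that division by sex. MT-ATP6 is also in the denominator of the MT-CO1 share, and the MT-ATP8 values include 529. These calls are therefore not separate sex differences.

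With RIN, 0 of 6 members passed in the edgeR test with year and sex as covariates, in which 0% of 16462 genes passed (2276 had an unadjusted p under 0.05, and DESeq2 called 206). The slopes ranged from −0.63 ± 0.45 log2 per RIN unit for MT-ATP6 to 0.16 ± 0.38 for MT-ATP8, with edgeR adjusted p from 0.555 to 0.993.

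Few nuclear genes of the same complexes rose with MT-CO1 across all animals, and the direction of their slopes depended on few libraries. The slope of each gene on the log2 level of MT-CO1 was fitted over 38 animals with year and sex as covariates (edgeR quasi-likelihood test), and 28.5% of 16677 genes passed, 15.5% rising and 13% falling. Of 14 nuclear complex IV genes 1 rose and 0 fell (median slope −0.12), of 9 complex III genes 0 rose and 1 fell (−0.25), and of 18 complex V genes 0 rose and 4 fell (−0.16), against a median of 0.03 over all genes. Without 537, Little_R, 558 and 4X0339 these medians turned to 0.20, 0.16 and 0.23, and MT-CO1 called 67 genes in place of 4759, with 0 calls in any nuclear list named here. Without 537 and Little_R alone the medians were 0.14, 0.05 and 0.11, and of the complex V genes 2 rose and 0 fell. Of 4 genes of complex II, which has no mitochondrially encoded subunit, 0 rose and 2 fell (−0.56). Of 37 complex I genes 0 rose and 2 fell (−0.16).

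Among the complex IV genes, COX4I2, a hypoxia-responsive form of subunit 4, rose by 0.69 ± 0.18 log2 per log2 unit of MT-CO1 (adjusted p = 0.00661). COX4I1, the common form, had a slope of −0.03 ± 0.16 (adjusted p = 0.916), and the muscle forms COX6A2 and COX7A1 had 0.01 ± 0.19 and 0.19 ± 0.19. COX5B had −0.06 ± 0.18. NDUFA4, a complex IV subunit despite its name, had −0.42 ± 0.22 (adjusted p = 0.133).

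In ATP synthase the genes of the alpha, beta and gamma subunits of the catalytic head fell over 38 animals, calls that ended without the 4 animals named above. ATP5F1A had a slope of −0.59 ± 0.22 (adjusted p = 0.0449), ATP5F1B −0.52 ± 0.19 (adjusted p = 0.0366) and ATP5F1C −0.54 ± 0.20 (adjusted p = 0.0418). The stator subunit gene ATP5PB had −0.86 ± 0.25 (adjusted p = 0.0112). ATP5F1D and ATP5F1E, of the head's delta and epsilon subunits, did not pass (0.17 ± 0.16 and 0.11 ± 0.14). ATP5MC1, which encodes the c ring, and the inhibitor ATP5IF1 did not pass, with 0.10 ± 0.21 and −0.17 ± 0.19. In complex III, the core subunit UQCRC2 fell by 0.61 on the log2 scale (adjusted p = 0.0318), whereas UQCRC1, CYC1 and UQCRFS1 had slopes of −0.29, −0.30 and −0.40 with adjusted p from 0.130 to 0.282. SDHA, the flavoprotein of complex II, had −0.66 ± 0.25 (adjusted p = 0.0469).

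Genes that handle mitochondrial RNA also fell or did not pass. Of 23 tested, 0 rose and 9 fell with MT-CO1 (median −0.22), where 15.5% of all genes rose and 13% fell. Without the same 4 animals 0 of these genes, of the assembly factors and of the regulators of biogenesis were called. MTPAP, the mitochondrial poly(A) polymerase, had a slope of −0.47 ± 0.09 (adjusted p = 0.000595), and LRPPRC, which stabilises these messenger RNAs, −0.55 ± 0.15 (adjusted p = 0.00847). PNPT1, a subunit of the RNA degradosome, had −0.30 ± 0.10 (adjusted p = 0.0224). LRPPRC's partner SLIRP (0.09 ± 0.15), the polymerase POLRMT (−0.08 ± 0.07), the transcription factor TFAM (−0.03 ± 0.09) and the helicase SUPV3L1 (−0.09 ± 0.09) did not pass. PTCD2 (−0.30 ± 0.12, adjusted p = 0.0543) and TACO1, the translational activator of MT-CO1 (−0.15 ± 0.14), did not pass either. Of 30 assembly factors 2 rose and 5 fell. SCO2, which delivers copper to MT-CO2, rose by 0.41 ± 0.10 (adjusted p = 0.00355), and COX11 fell by 0.79 on the log2 scale (adjusted p = 0.00249). Of 8 regulators of mitochondrial biogenesis 1 rose (NRF1, 0.27 ± 0.07) and 2 fell, with PPARA at −0.94 ± 0.18. PPARGC1A (−0.71 ± 0.28, adjusted p = 0.0532) and ESRRA (−0.03 ± 0.12) did not pass.

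With MT-CO2 as predictor more genes were called: 42.6% of 16909 genes passed, 23.3% rising and 19.2% falling. Rises made up 54.8% of those calls, and 66.1% when counts were scaled by the orthologous exon total. Of 14 complex IV genes 1 rose and 2 fell, of 9 complex III genes 0 rose and 3 fell, of 18 complex V genes 0 rose and 5 fell, and of 4 complex II genes 4 fell. These counts depended on few libraries. Without 537 and Little_R, MT-CO1 called 1370 genes and MT-CO2 3759. Without 537, Little_R, 558 and 4X0339, MT-CO2 called 983 in place of 7199. Without those 4, for MT-CO2 complex IV had 2 rises, complex I had 2 and complex V had 1, with 0 falls in each.

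Some cell type markers were called in the same fits. Of 10 cardiomyocyte markers 0 rose and 4 fell with MT-CO1, while 3 of 6 endothelial and 2 of 6 fibroblast markers rose, against 15.5% of all genes rising and 13% falling. The smooth muscle, macrophage, adipocyte, neutrophil, T cell and erythrocyte lists had 0 calls. With MT-CO2, 0 cardiomyocyte markers rose and 5 fell, and 5 endothelial and 5 fibroblast markers rose, against 23.3% and 19.2% of all genes. There TAGLN, 1 of 5 smooth muscle markers, FABP4, 1 of 5 adipocyte markers, and the macrophage marker CD68 rose and the macrophage marker CSF1R fell. Without the 4 animals 0 cardiomyocyte, endothelial and fibroblast markers were called for either gene. Little_R had the lowest summed cardiomyocyte level of all animals (12933 CPM against a median of 102517) and also the lowest level of nuclear complexes I, II and IV, while 537 had the lowest of complexes III and V. The part of cell content in the slopes was not tested, and in bulk tissue fewer cardiomyocytes and less RNA per cell cannot be told apart.

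Mean log2 CPM of each nuclear complex was also correlated with each member, 112 relations in all with those to the cell type marker lists. After adjustment 2 relations with nuclear complexes passed, both with complex II: r = −0.574 for MT-CO1 (adjusted permutation p = 0.0161) and −0.712 for MT-CO2 (adjusted permutation p = 0.00112). Spearman's rho was −0.304 and −0.317 (adjusted permutation p = 0.552 for both), and without the 2 farthest animals on the complex II axis, which are 537 and Little_R, r was −0.325 and −0.496. Within years the sign turned. For MT-CO1 and complex II, r was 0.543 in the earlier year (permutation p = 0.0231) and −0.776 in 2018 (permutation p = 8e-05), and for MT-CO2 0.246 (permutation p = 0.342) and −0.822 (permutation p = 3e-05).

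The other complexes, none of which passed over 38 animals, turned in the same way. MT-CO2 and complex IV had r = 0.725 in the earlier year (permutation p = 0.00089) and −0.474 in 2018 (permutation p = 0.0279). MT-CO1 and complex IV had 0.660 (permutation p = 0.00392) and −0.448 (permutation p = 0.0396). With complex V, MT-CO1 had 0.648 and −0.580, and with complex III 0.670 and −0.648. These within-year p-values are not adjusted, and the difference between years was not tested. The animals of 2018 include 537 and Little_R, the lowest for complex IV (mean log2 CPM 7.96 and 7.87, with 554 next in 2018 at 8.54). Without these, the farthest on the complex IV axis, r over 38 animals turned from −0.233 to 0.291 for MT-CO2. For MT-CO1 it turned from −0.152 to 0.311. The values within 2018 were not computed without 537 and Little_R. MT-CO2 also passed with the cardiomyocyte markers (r = −0.558, adjusted permutation p = 0.0274) and the endothelial markers (r = 0.571, adjusted permutation p = 0.0161), neither of which passed without 537 and Little_R (r = −0.283 and 0.351). Without the 2 animals farthest on the cardiomyocyte axis, a different pair, r with those markers was −0.559 (unadjusted permutation p = 0.00122). In these relations the orthologous exon total divides both sides, and its own log2 had r = −0.719 with MT-CO1 and −0.775 with MT-CO2.

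**Figure D5:**
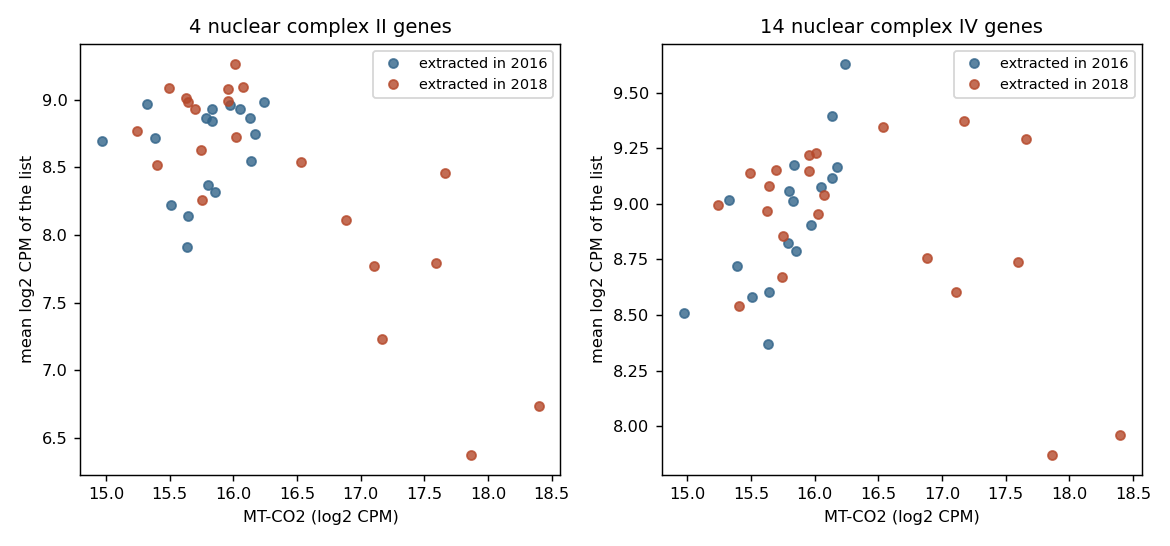
Mean log2 CPM of 4 nuclear complex II genes (left) and of 14 nuclear complex IV genes (right) against log2 CPM of MT-CO2, with 1 point per animal coloured by extraction year. The relation with complex II has r = −0.712 and that with complex IV r = −0.233, and the 2 lowest points in each panel are 537 and Little_R.

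For the other members 0 nuclear genes of complexes III, IV and V passed. MT-CYB called 4 of 16292 genes over 38 animals (0.0246%), and all 4 were mitochondrial: MT-ND6 (slope 1.78 ± 0.23), MT-ATP6 (1.69 ± 0.28), MT-CO3 (1.66 ± 0.23) and MT-ND5 (0.27 ± 0.05). That fit spans the 15 and the 23 animals, so the slopes of MT-ND6, MT-ATP6 and MT-CO3 restate the division. Within the sets MT-CYB did not pass with MT-ATP6 (r = 0.386 in the 23 and 0.0300 in the 15, adjusted permutation p = 0.102 and 0.923) or with MT-CO3 (r = 0.336 and 0.481, adjusted permutation p = 0.156 and 0.106). MT-CO3 called 1 gene in the 23 animals with low values (0.00608% of 16441), which was MT-ATP6 with 0.90 ± 0.14 (edgeR adjusted p = 0.042), and 89 genes in the 15 (0.526%). MT-ATP6 called 575 genes in the 23 (3.43%) and 1759 in the 15 (10.7%). Of the nuclear complex lists only complexes I and II had a call among these, with 1 fall each in the 15. MT-ATP8 called 2 of 16811 genes in the 36 animals (0.0119%), ENSPTRG00000051343 and IGLV10-54, an immunoglobulin light chain segment (−3.42 ± 0.59). Log2 MT-ATP6 had r = −0.563 with RIN in the 15 animals. With RIN as a further covariate the MT-ATP6 count there was 59, and without 537 and Little_R that in the 23 was 30.

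The nuclear genes most like each member were named by Pearson's r of log2 CPM among 14400 nuclear genes with a symbol, as a description with no test. For MT-CO1 over 38 animals they were PAGR1 (0.794), ISYNA1 (0.766) and TAFAZZIN (0.763), the last of which remodels cardiolipin, the lipid of the inner mitochondrial membrane. For MT-CO2 they were SIGIRR (0.843), TOP1MT (0.839), the mitochondrial topoisomerase, and CDK5RAP1 (0.814), which modifies mitochondrial transfer RNAs. In the 23 animals with low MT-ATP6, TAFAZZIN (0.862), HSF4 (0.846) and CDK5RAP1 (0.843) were the most like MT-ATP6, and TRIM50 (0.842), ZNF211 (0.833) and TAFAZZIN (0.829) the most like MT-CO3. In the 15 animals they were SRA1 (0.924), IRF1 (0.902) and GUK1 (0.897) for MT-ATP6 and RRAD (0.891), MVD (0.889) and POLR1H (0.831) for MT-CO3. For MT-ATP8 in 36 animals they were WNT11 (0.662), LRRC74A (0.644) and MSTO1 (0.628). For MT-CYB over 38 animals the highest values were lower, with CA3, a muscle carbonic anhydrase (0.507), GABRA4 (0.433) and EIF4A3 (0.425). In this ranking the orthologous exon total divides both sides. The values over 38 animals include 537, Little_R, 558 and 4X0339, without which the slope calls of MT-CO2 fell from 7199 to 983.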

How the data were processed

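Polyadenylated RNA from 38 chimpanzee hearts was sequenced. Gene counts were deposited as raw read counts per annotated gene, which the authors made with STAR 2.6.1b on Pan_tro_3.0 and Ensembl gene models. A second deposited table holds raw counts over human-chimpanzee orthologous exons, made by the authors with featureCounts 1.6.3. A deposited normalized matrix of 13545 genes in 37 animals, a score standardized per gene and quantile normalized by the authors, holds 0 of the 6 members and served only as an alternative. 52 columns of per-sample values that matched no sample used here were not used, most of them in a table of human counts.

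CPM is the gene count divided by the orthologous exon total of that animal and multiplied by 1e+06. Logs of nuclear genes and lists carry a pseudocount of 0.5 counts, and logs of the 6 members carry none. Gene lengths came from a RefSeq table of another chimpanzee assembly, and no coordinates are given. Extraction year, RIN, sex, age and source came from the study's sample table. Differences and slopes were tested with edgeR 4.0.16 in R 4.3.3 (quasi-likelihood test, TMM, filterByExpr) on the whole gene count table with Benjamini-Hochberg adjustment, and with DESeq2 1.42.0 as an alternative. Correlations and shares used two-sided permutation tests with 100000 resamples. For overdispersion, a negative binomial was fitted to each gene, with a lowess trend (share 0.75), and the SE came from 1000 sets of animals drawn with replacement. The scripts were tested on simulated data. Because MT-CO3, MT-ATP6 and MT-ATP8 fell into separate sets of animals, their relations and slopes were computed within the sets and not over 38 animals as planned, and the 15 planned pairs became 24 relations. The slope fits left out the member used as predictor. Named genes were the 6 members, a list of nuclear genes of each complex and of mitochondrial RNA handling, the genes with the smallest p in each list and direction, and the 3 nuclear genes most like each member; MT-ND6, MTRNR2L14, ENSPTRG00000051343 and the genes of slope fits with few calls were named after their values were seen. The members and lists were chosen with earlier results of these data known. Of 208 list symbols, 203 were matched. Alternatives were other scalings, no filter on low counts, other covariates, subsets of animals, each extraction year alone and Yerkes animals alone. Nothing marks the animals as replicates of a treatment, and the tests take each animal as an independent unit.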

Additional observations from a re-analysis of the deposited data

How the results depend on the processing

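No paired analysis was possible because the animals form 1 group with no replicate numbers shared between groups. The cause of the changes below was not tested. Nuclear complex relations past the threshold numbered 2, and 0 under TMM, with the normalized matrix, without 537 and Little_R or without 537, Little_R, 558 and 4X0339 (the 4 high animals), but 11 with the gene count total. That scaling turned MT-CO2 with endothelial markers (r = −0.00478), MT-CO1 with MT-CYB (−0.0673) and, in the 15 animals, MT-CYB with MT-ATP6 (−0.0411). Without the 4 high animals, in the 23, r was −0.0779 for MT-CO2 with MT-CO3, −0.0215 for MT-CO3 with MT-CYB and −0.0368 for MT-CYB with MT-ATP6. The gene count total moved the median of all genes by −0.20 in the year comparison.

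Share tests past the threshold numbered 0, 1 with the other 5 members as denominator and 3 in 2018 alone. The MT-CO2 share by sex turned to 0.052 with that denominator, 0.044 without 4x0519 and 529 and 0.058 in 2018, and its r with RIN to 0.00526, 0.00647 and 0.166. MT-ATP8 with RIN turned to −0.0916 without 4x0519 and 529 and −0.137 in 2018, and MT-CYB by sex to −0.20 in the earlier year. The MT-CO2 dispersion was −1.25 with the gene count total, −0.66 under TMM, −1.06 in the earlier year and −0.17 in 2018.

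Slope calls under DESeq2 were 3074 for MT-ATP6 and 775 for MT-CO3 in the 15 animals, 2106 and 378 in the 23, 17 for MT-CYB and 72 for MT-ATP8. With the orthologous exon total they were 1110 for MT-ATP6 and 12 for MT-CO3 in the 15, and with RIN as covariate 59 for MT-ATP6. Without a filter they were 12 for MT-CYB and 4 for MT-ATP8. Without 537 and Little_R they were 1370 for MT-CO1, 3759 for MT-CO2 and 30 for MT-ATP6 in the 23. Without the 4 high animals they were 67, 983 and 56, and 0 for MT-ATP8 and for MT-CO3 in the 23.

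Genes called with RIN numbered 206 under DESeq2, 2 with the orthologous exon total, 2 without a filter, 2 in the earlier year and 225 without the 4 high animals. By sex they numbered 101 under DESeq2, 53 without a filter and 129 without the 4 high animals, and the 16.1% called by year were 9.14% without those and 2.08% in Yerkes animals. Rises made up 70.0% of the calls by year, and 36.8% with the gene count total. RIN slopes turned for MT-ATP8 (−0.98 in Yerkes animals, −0.059 without 4x0519 and 529), MT-CYB (0.20 in Yerkes animals), MT-CO1 (−0.066 in the earlier year, −0.0021 with the gene count total, −0.063 without 537 and Little_R, −0.10 without the 4) and MT-CO2 (−0.25, −0.0044, −0.10 and −0.15 in the same order). Year differences turned for MT-ATP6 (0.49 without the sex covariate, 0.10 without 537 and Little_R, 0.26 without the 4), MT-CO3 (0.18 without the sex covariate, 0.065 without the 4) and MT-CYB (0.0022 under DESeq2, 0.00087 without a filter, 0.11 without the sex covariate, 0.047 with the orthologous exon total, 0.11 without 537 and Little_R, 0.22 without the 4). None of these turned values passed the threshold. Settings that left out 537 with 3 others, or 4x0519 with 529, were chosen after seeing the data.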

Other observations

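Values that belong to no comparison above concern erythrocyte content and the negative end of the likeness ranking. The summed level of the 3 erythrocyte markers was highest in 529 (8942 CPM against a median of 231.0), the animal with the highest MT-CO3, MT-ATP6 and MT-ATP8, and its part in those levels was not tested. The nuclear gene with the lowest r over 38 animals was RRAS2 for MT-CO1 (−0.866), CDH13 for MT-CO2 (−0.915) and MTRNR2L14 for MT-CYB (−0.723). In the 15 animals it was AKAP6 for MT-ATP6 (−0.967) and PALMD for MT-CO3 (−0.930), in the 23 DDX19A (−0.891) and ADIPOR1 (−0.852) in the same order, and in the 36 CTNNA1 for MT-ATP8 (−0.766). These are descriptions with no test.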
